A study of Mus musculus with 16 samples.

Results

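Mice overexpressing FAT10 in the liver were compared with mice given a control adenovirus while both were on pemafibrate. The 8 livers compared were chosen by their sample titles, 4 named Ad-FAT10 Pema and 4 named Ad-CTRL Pema, out of 16 livers in the study. All mice were wild-type C57BL/6J, injected in the tail vein at 8 weeks of age with the same number of genome copies of a control adenovirus (Ad-CTRL) or of an adenovirus carrying FAT10 (Ad-FAT10). After 4 days both groups received pemafibrate (Pema) at 1 mpk by oral gavage at 18 h and 5 h before liver collection, and were fasted for the last 5 h. The other 8 mice, 4 for each virus, had the vehicle CMC in place of the drug. The FAT10 effect in them is set below beside the effect with pemafibrate. Their counts were also part of the same fit, and so enter its gene filter, scaling and estimate of spread. Every mouse had received an adenovirus, and the labels give neither the promoter that drives FAT10, nor the sex of the mice, nor the vector load reached in the liver. The livers were sequenced whole, so each value mixes hepatocytes with the other cells of the organ. A change is positive where Ad-FAT10 Pema was higher than Ad-CTRL Pema.

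FAT10 is a ubiquitin-like protein encoded by Ubd. It is loaded by the enzyme UBA6 and joined to other proteins, which are then degraded by the proteasome, and its gene is switched on by interferon-gamma and tumour necrosis factor. Pemafibrate is a selective agonist of PPARα, the nuclear receptor that turns on peroxisomal and mitochondrial fatty acid oxidation and ketone body formation in hepatocytes. By its title, the series set out to find the pemafibrate-responsive genes of livers with excess FAT10.

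Between 20986648 and 28898229 counts were obtained from each of the 8 libraries, at which 3 counts correspond to 0.104 to 0.143 CPM, a count scaled to equal library size. The 10 most abundant genes held 14.05% ± 1.05 of the counts with FAT10 and 18.6% ± 0.548 with the control virus (SD, n = 4, exact two-sided permutation p = 0.0286, the smallest that 70 assignments allow, and 0.0477 adjusted over 5 library measures). The share of mitochondrially encoded genes was 4.46% ± 1.16 against 6.22% ± 0.781 (SD, n = 4, exact p = 0.0857, and 0.0286 without Ad-FAT10 Pema replicate 1). The first principal component of the 8 libraries held 61.7% of the variance and separated the groups, and on the second, which held 12.3%, Ad-FAT10 Pema replicate 1 was at -41.1 and replicate 3 at 28.0. The labels name no batch. Below, levels are CPM after TMM scaling and are listed from replicate 1 to replicate 4. The 3-count limit above is on library totals, before that scaling, so levels near it can be set against it only roughly. Changes are log2 changes with the standard error (SE), and the genes described as called passed 0.05 in edgeR's quasi-likelihood test after Benjamini-Hochberg adjustment.

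Ubd (ENSMUSG00000035186) stood at 21.6, 47.8, 26.5 and 14.2 CPM in the Ad-CTRL Pema livers and at 546, 442, 391 and 459.6 CPM in the Ad-FAT10 Pema livers. All 4 FAT10 libraries lay far above all 4 control libraries, and replicate 2 was the highest of the controls. The log2 change was 4.06 ± 0.38 (edgeR adjusted p = 8.1e-07). In counts per gene, reads from the vector and from the endogenous gene cannot be told apart. Of the 10 measured genes of FAT10 conjugation and binding, Mad2l1, a spindle checkpoint protein known to bind FAT10, was the only other member called, at 1.21 ± 0.13 (edgeR adjusted p = 3.4e-06). Uba6, the activating enzyme of FAT10, had a log2 change of 0.25 ± 0.12 (adjusted p = 0.094), and Nub1, which speeds the degradation of FAT10, 0.27 ± 0.13 (adjusted p = 0.109). On library totals all 10 were called higher, Uba6 at 0.62 and Nub1 at 0.65. With TMM, Uba6 passed the test without Ad-CTRL Pema replicate 3, at 0.33 with an adjusted p of 0.0449, and Nub1 without Ad-CTRL Pema replicate 2, at 0.43 with an adjusted p of 0.0116.

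FAT10 changed 6160 of the 14770 genes tested (41.7%), of which 3136 were higher (21.2%) and 3024 lower (20.5%). The rises were larger than the falls. The median log2 change was 0.82 among the genes called higher and -0.55 among those called lower, and 1242 genes rose by at least 2-fold (8.41% of the genes tested) against 412 that fell as much (2.79%). Past 8-fold there were 57 rises and 8 falls. The 2 groups of libraries did not overlap in 4923 of the called genes (33.3% of those tested). This balance depends on the scaling. TMM sets the median gene close to no change, at -0.02, and the factors it used ran from 0.831 to 0.919 in the Ad-CTRL Pema libraries and from 1.08 to 1.17 in the Ad-FAT10 Pema libraries. With library totals as the only scaling the median gene stood at 0.34, and 7204 genes were called higher and 826 lower, 89.7% of them higher against 50.9% with TMM. Changes below are relative to the TMM median, and counts on library totals are given beside those with TMM for many of the lists.

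**Figure D1:**
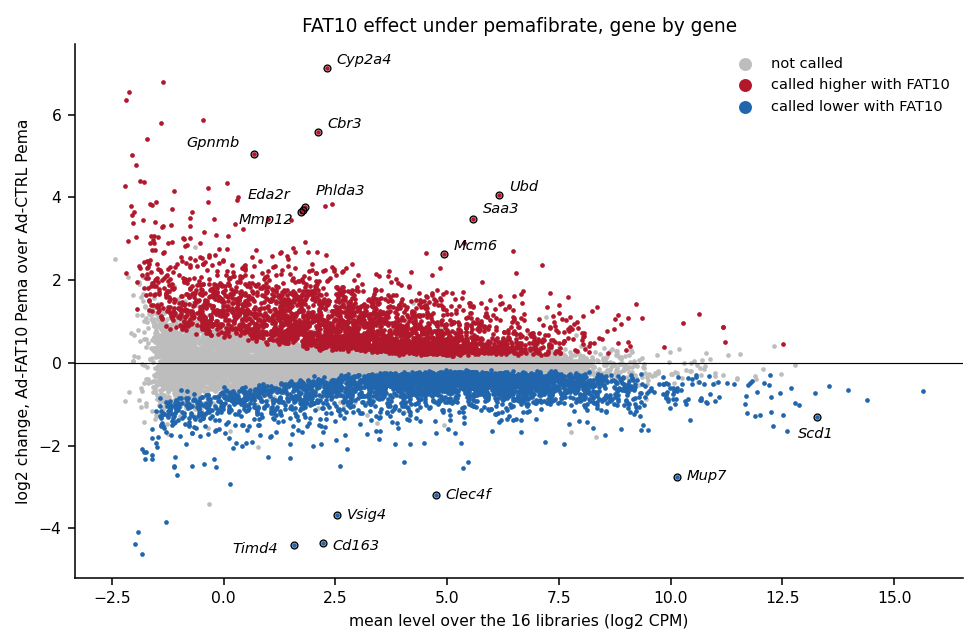
Log2 change of each of the 14770 genes tested (vertical axis, Ad-FAT10 Pema over Ad-CTRL Pema, TMM scaling) against its mean level over the 16 libraries (horizontal axis, log2 CPM). Red points are the 3136 genes called higher, blue the 3024 called lower and grey the rest, with named genes circled. Cyp2a4 and Cbr3 stand highest among the circled genes and Timd4 and Cd163 lowest.

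Genes of DNA replication and cell division rose broadly. Of 42 replication genes, 36 rose and 4 fell, with a median log2 change of 1.11, and of 38 mitosis genes 35 rose and 1 fell, with a median of 1.84, where 21.2% of all genes rose and the median gene stood at -0.02. Mcm6, a subunit of the replicative helicase, measured 11.5, 14.5, 15.6 and 11.1 CPM in the control livers and 86.7, 80.9, 70.2 and 89.5 CPM with FAT10. The groups were far apart and the FAT10 libraries close together, at a log2 change of 2.64 ± 0.15 (edgeR adjusted p = 2.3e-08). The helicase subunits Mcm2 and Mcm3 rose by 2.03 ± 0.16 and 1.87 ± 0.14, and Lig1, the ligase that joins Okazaki fragments, by 2.114 ± 0.17. Top2a, the topoisomerase that untangles chromosomes before division, went from 5.08, 4.86, 6.38 and 3.61 to 16.9, 24.2, 26.7 and 25.3 CPM. Its highest control library lay below its lowest FAT10 library, and the log2 change was 2.23 ± 0.19 (edgeR adjusted p = 3.7e-07). Cdk1, the kinase that starts mitosis, went from 3.89, 2.24, 2.79 and 3.26 to 14.7, 13.7, 11.9 and 12.8 CPM, a rise of 2.12 ± 0.19. Its partner cyclin Ccnb1 rose by 2.22 ± 0.22, and Cdc20, the activator of the anaphase-promoting complex, by 2.31 ± 0.20.

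The members that went the other way were few. Gins4, a subunit of the replication fork complex, fell by 0.52 ± 0.10 and Tk1, thymidine kinase, by 0.43 ± 0.11. Mcm10, a replication initiation factor, fell by 0.53 ± 0.17, which no longer passed in 3 of 16 leave-one-out fits, each without 1 library (highest adjusted p = 0.0611). Without Ad-CTRL Pema replicate 1, or without Ad-FAT10 Pema replicate 2 or 3, the count of replication genes that fell was 2. The mitosis gene that fell was Pttg1, securin, by 0.27 ± 0.08 (edgeR adjusted p = 0.0143). None of these 4 was called lower on library totals.

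Promoters of 4 of the 8 cell cycle genes named above are shown because many members of both lists rose together, and these 4 were chosen after their motifs had been seen. Of the other 4, in the same stretch before the start, Lig1 held none of the motifs in any of its 3 promoters. Mcm2 and Mcm3 held no E2F site there and Ccnb1 no TTTGAA. Lig1 and Mcm3 did hold E2F sites just after the start, within the wider window counted below. Each line is the 150 bases before the start of the gene, on the gene's own strand, from the RefSeq promoter table of GRCm38.p6. Capitals mark letters of a motif on either strand, and motifs may share letters. The E2F site was searched as TTCGCGC, as TTGGCGC and as TTCCCGC. The other motifs were the CCAAT box and the cell cycle homology region, TTTGAA. In Mcm6, each of the longer runs of capitals holds an E2F site on both strands.
Mcm6, chr1:128359706-128359855, minus strand: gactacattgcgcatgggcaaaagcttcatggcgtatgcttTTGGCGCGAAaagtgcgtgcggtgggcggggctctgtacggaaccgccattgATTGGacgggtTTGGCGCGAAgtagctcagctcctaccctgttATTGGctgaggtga
Cdk1, chr10:69352913-69353062, minus strand: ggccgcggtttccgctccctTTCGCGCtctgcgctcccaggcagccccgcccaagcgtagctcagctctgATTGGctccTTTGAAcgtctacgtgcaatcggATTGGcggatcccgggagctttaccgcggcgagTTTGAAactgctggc
Cdc20, chr4:118437344-118437493, minus strand: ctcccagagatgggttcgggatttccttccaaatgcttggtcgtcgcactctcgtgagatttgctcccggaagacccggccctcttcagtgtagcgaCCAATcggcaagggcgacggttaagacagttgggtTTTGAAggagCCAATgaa
Top2a, chr11:99024190-99024339, minus strand: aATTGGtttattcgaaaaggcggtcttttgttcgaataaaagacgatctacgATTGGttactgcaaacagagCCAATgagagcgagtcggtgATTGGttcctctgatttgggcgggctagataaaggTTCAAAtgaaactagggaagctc

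Over the window from 250 bases before to 50 bases after the start, an E2F site was found in 64.1% of 39 promoters of 34 replication genes, in 14.7% of 34 promoters of 32 mitosis genes and in 8.07% of all 32851 promoters in the table. A CCAAT box together with a TTTGAA was found in 12.8%, 64.7% and 6.95% of the same sets. The TTTGAA alone was in 73.5% of mitosis promoters and 17.9% of all promoters. These shares describe letters in the sequence, and binding was not measured.

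DNA repair and checkpoint genes rose in 24 of 31 cases and none fell, with a median of 0.96. Brca1, which acts in repair by homologous recombination, went from 1.14, 1.496, 1.35 and 1.01 CPM to 5.98, 5.22, 5.46 and 6.89 CPM, with no overlap, a rise of 2.24 ± 0.19 (edgeR adjusted p = 4.7e-07). Rpa2, which coats single-stranded DNA, rose by 1.25 ± 0.11, the mismatch repair gene Msh6 by 1.02 ± 0.11 and Timeless, which protects the replication fork, by 1.03 ± 0.11. Among 33 genes that p53 is known to activate, 19 rose and 4 fell. That was 57.6% and 12.1%, where 21.2% and 20.5% of all genes rose and fell. Phlda3, an inhibitor of AKT signalling, stood at 1.04, 0.695, 0.848 and 0.617 CPM in the controls and at 11.9, 8.66, 11.8 and 11.2 CPM with FAT10. Eda2r, a receptor of the tumour necrosis factor receptor family, stood at 1.24, 0.534, 0.748 and 0.837 and 13.2, 8.28, 9.97 and 12.3 CPM. Both genes were at or below 1.24 CPM in every control library and at or above 8.28 CPM in every FAT10 library, with log2 changes of 3.77 ± 0.24 and 3.69 ± 0.24 (edgeR adjusted p = 3.9e-08 and 3.9e-08). The death receptor gene Tnfrsf10b rose by 3.48 ± 0.27 and the RNA-binding protein gene Zmat3 by 1.41 ± 0.10. The 4 that fell were Plk3 at -0.97, Ei24 at -0.70, Perp at -0.69 and Dcxr at -0.44, of which Dcxr lost its call without Ad-FAT10 Pema replicate 2 (log2 change -0.37, edgeR adjusted p = 0.0558).

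**Figure D2:**
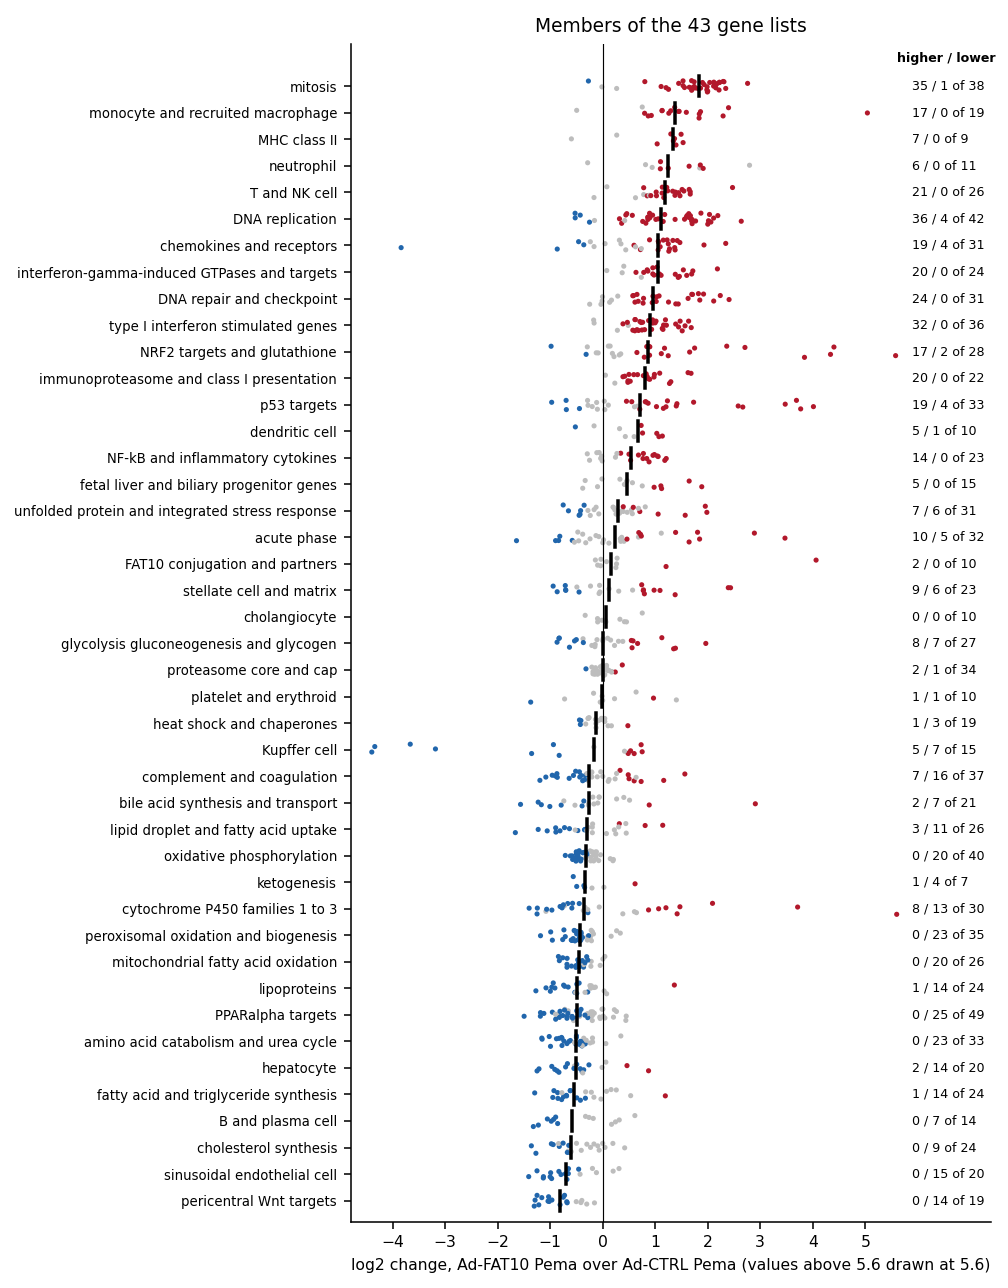
Members of the 43 gene lists, ordered by the median log2 change under pemafibrate (horizontal axis, Ad-FAT10 Pema over Ad-CTRL Pema, TMM scaling, clipped at 5.6). Each point is a measured member, red where called higher, blue where called lower and grey otherwise, the black bar is the median, and the right column counts members higher and lower. Mitosis genes lie highest and pericentral Wnt targets lowest. On library totals alone the medians of ketogenesis, lipid droplet, bile acid, cytochrome P450, oxidative phosphorylation, proteasome, complement, heat shock, Kupffer cell and platelet lists turn from below to above 0.

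Genes of the liver's resident macrophages, the Kupffer cells, divided into a group that fell to low levels and a group that rose. Timd4, a receptor for dying cells, stood at 14.4, 9.24, 10.1 and 12.1 CPM in the control livers and at 0.232, 0.381, 1.07 and 0.3903 CPM with FAT10. Cd163, the receptor that clears haemoglobin, stood at 20.8, 9.24, 18.4 and 24.8 and 0.811, 0.496, 1.07 and 1.17 CPM. Every FAT10 library of both genes lay at or below 1.17 CPM and every control library at or above 9.24 CPM, and the falls were 4.40 ± 0.40 and 4.34 ± 0.31 on the log2 scale (edgeR adjusted p = 7.4e-07 and 1.0e-07). Vsig4, a complement receptor, went from 23.4, 9.94, 16.01 and 20.4 to 1.12, 0.686, 2.05 and 1.53 CPM, and Clec4f, a lectin found on Kupffer cells, from 85.2, 50.3, 70.8 and 86.8 to 11.5, 4.39, 11.3 and 4.98 CPM. Neither overlapped between the groups, and they fell by 3.66 ± 0.32 and 3.19 ± 0.32. In all 7 of the 15 Kupffer cell genes fell and 5 rose, and on library totals 4 fell and 7 rose. The TMM shares were 46.7% lower and 33.3% higher, against 20.5% and 21.2% of all genes.

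The 5 that rose with TMM were Cd5l, a secreted survival factor of macrophages, the complement subunits C1qa, C1qb and C1qc, and Slc40a1, the iron exporter. Cd5l measured 162, 92.6, 112 and 134 CPM and 153, 179, 312 and 199.98 CPM, a rise of 0.75 ± 0.21 (edgeR adjusted p = 0.00738). C1qb measured 74.3, 45.2, 50.2 and 57.9 CPM and 76.3, 86.1, 128 and 87.7 CPM, a rise of 0.73 ± 0.17. In both genes Ad-FAT10 Pema replicate 3 was the highest library, and for Cd5l the groups overlapped. Slc40a1 rose by 0.53 ± 0.14 and C1qc by 0.60 ± 0.17, while C1qa, at 0.49 ± 0.16, lost its call in 3 of 16 leave-one-out fits (highest adjusted p = 0.129, without Ad-FAT10 Pema replicate 3). Summed over all 15 genes the level was 695 to 1006 CPM in the controls and 825 to 1199.9 CPM with FAT10. In whole liver, fewer cells of a type and less RNA of a gene per cell cannot be told apart. Recruited macrophage genes, described next, rose in the same libraries, and their part in these 5 rises was not tested.

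Genes of monocytes and of macrophages recruited from the blood rose in 17 of 19 cases and none fell, with a median of 1.37. Gpnmb, a glycoprotein of lipid-laden macrophages, measured 0.363, 0.374, 0.1995 and 0.176 CPM in the controls and 4.01, 10.8, 14.2 and 7.58 CPM with FAT10. Lgals3, galectin-3, measured 14.2, 14.5, 12.7 and 10.6 CPM and 39.4, 63.7, 96.7 and 54.5 CPM. In both genes all FAT10 libraries lay above all controls, replicate 3 was the highest and replicate 1 the lowest of them, and the rises were 5.04 ± 0.39 and 2.29 ± 0.21 (edgeR adjusted p = 1.7e-07 and 8.0e-07). Ms4a4c, a membrane protein gene of monocytes, rose by 1.84 ± 0.21 and Plac8, a marker of inflammatory monocytes, by 1.46 ± 0.17. The 2 members not called were Spp1 and Fn1, of which Fn1, fibronectin, is also made by hepatocytes and held most of the counts of the list. Without Fn1 the summed level of the list was 246 to 327 CPM in the controls and 488 to 816 CPM with FAT10. Mmp12 and Mmp13, matrix-degrading enzymes of macrophages and other cells, were among the 12 largest rises named by rule, by 3.64 ± 0.38 and 2.78 ± 0.38.

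**Figure D3:**
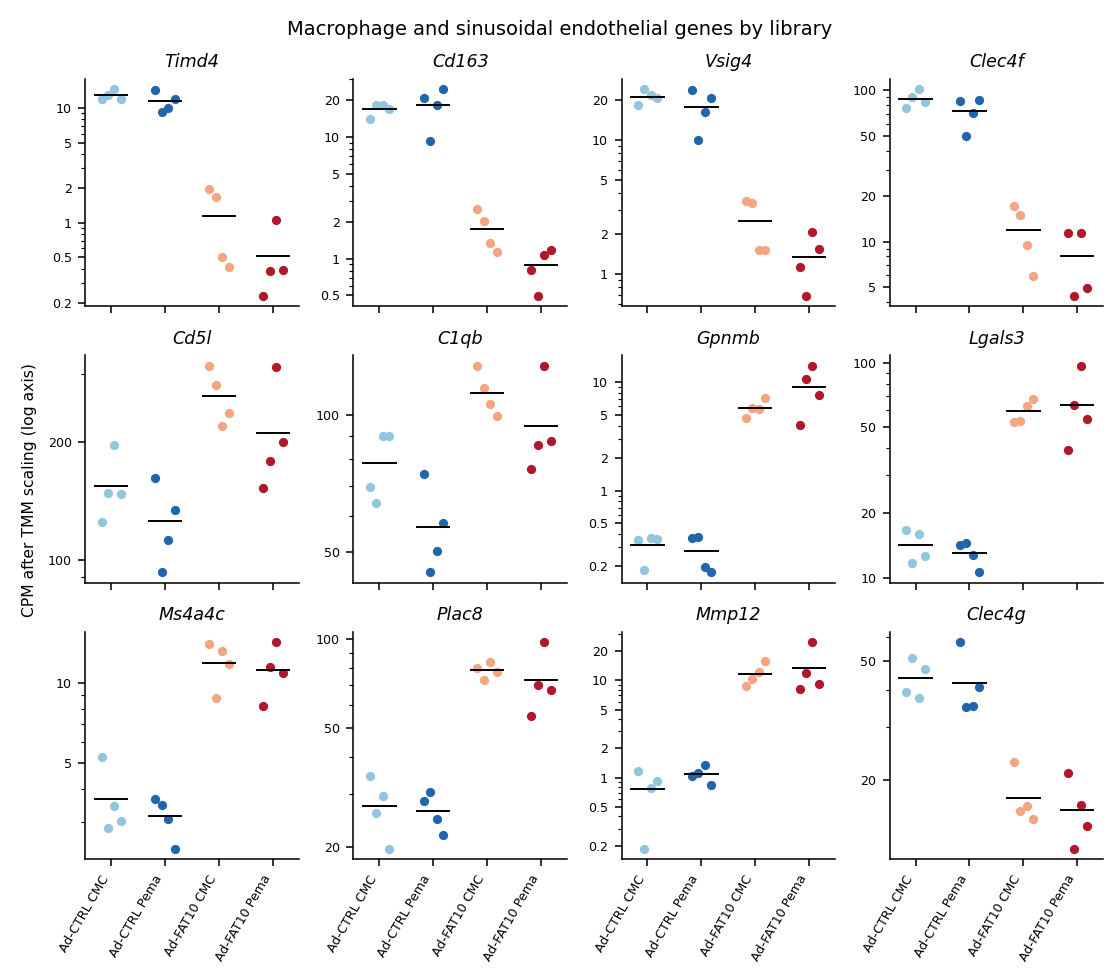
Level of 12 genes in each of the 16 libraries (vertical axis, CPM after TMM scaling, log axis), by group, with the group mean as a bar. Timd4, Cd163, Vsig4, Clec4f and the endothelial gene Clec4g are lower in all Ad-FAT10 Pema than in all Ad-CTRL Pema libraries, while Gpnmb, Lgals3, Ms4a4c, Plac8 and Mmp12 are higher and Cd5l overlaps. The Ad-FAT10 CMC libraries are shown beside them.

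Genes of other white blood cells differed by cell type. T and NK cell genes rose in 21 of 26 cases and none fell, with a median of 1.19 and a summed level of 42.2 to 61.4 CPM in the controls and 77.4 to 171 CPM with FAT10. Trac, the constant part of the T cell receptor, went from 1.56, 1.66, 1.796 and 1.37 to 3.13, 3.58, 6.79 and 5.01 CPM, a rise of 1.55 ± 0.25, with all FAT10 libraries above all controls. Cd3e and Cd3g, chains of the T cell receptor complex, rose by 1.67 ± 0.28 and 1.47 ± 0.26, and the kinase gene Lck by 1.16 ± 0.21. Neutrophil genes were rare, at a summed 8.48 to 12.4 CPM and 20.3 to 31.5 CPM. Of 11 measured, 6 rose and none fell, among them Csf3r, the receptor for the growth factor G-CSF, by 1.10 ± 0.16, S100a8 and S100a9, the subunits of calprotectin, by 1.65 ± 0.46 and 1.86 ± 0.42, and Retnlg by 1.91 ± 0.49. B and plasma cell genes fell in 7 of 14 cases and none rose, among them Ms4a1, the gene for CD20, by 1.32 ± 0.31, Fcer2a by 1.23 ± 0.37, the B lineage factor Pax5 by 1.05 ± 0.31 and Cd79a by 0.93 ± 0.29. That count rested on Ad-CTRL Pema replicate 1, without which 1 member of the B and plasma cell list fell. On library totals 1 fell and 1 rose. Fcer2a was low, at 0.449 to 0.882 CPM in the controls and 0.229 to 0.270 CPM with FAT10, so its fold change is uncertain.

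Dendritic cell genes rose in 5 of 10 cases, namely Clec9a, the interferon regulatory factor Irf8, Flt3, Batf3 and Bst2. Their changes ran from 0.73 to 1.14. Zbtb46 fell by 0.52 ± 0.14, which was not called on library totals. The shares were 50% higher and 10% lower, against 21.2% and 20.5% of all genes. Irf8 is also given with the interferon-gamma genes below. Bst2, at 201 to 259 CPM in the Ad-CTRL Pema libraries, held most of the summed 250 to 321 CPM of the dendritic cell list. Without Ad-FAT10 Pema replicate 3 the count of rises was 3, Batf3 and Flt3 losing their calls (log2 changes 0.51 and 0.80, edgeR adjusted p = 0.132 and 0.0545). Batf3 lost its call in 5 of the 16 fits.

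Sinusoidal endothelial cells line the liver's capillaries, and their genes fell in 15 of 20 cases (8 on library totals, where 2 rose) with a median of -0.70, where 20.5% of all genes fell. Clec4g, a lectin of these cells, went from 57.5, 35.1, 35.3 and 40.9 to 21.2, 11.8, 16.5 and 14.05 CPM. Ptprb, a phosphatase that steadies vessels, went from 69.4, 43.6, 48.4 and 52.8 to 20.96, 19.8, 28.7 and 20.5 CPM. Both were lower in every FAT10 library than in any control, by 1.41 ± 0.19 and 1.25 ± 0.21 (edgeR adjusted p = 2.4e-05 and 1.5e-04). Bmp2, a signal that induces hepcidin in hepatocytes, fell by 1.00 ± 0.16 and Rspo3, which amplifies Wnt signals, by 0.99 ± 0.17. The general endothelial genes Pecam1 and Cdh5 and the lymphatic and sinusoidal gene Lyve1 were among the 5 not called.

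Stellate cell and matrix genes were higher in 9 of 23 cases and lower in 6, against 12 and 3 on library totals. With TMM these were 39.1% and 26.1%, where 21.2% and 20.5% of all genes were higher and lower. Col4a1, a basement membrane collagen, rose by 1.09 ± 0.19. Lox, which crosslinks collagen, was called higher, from 0.0881 to 0.107 CPM in the controls, at or under the 3-count limit, to 0.455 to 0.725 CPM. Dcn, decorin, fell by 0.70 ± 0.12 and Reln, reelin, a gene of quiescent stellate cells, by 0.94 ± 0.13. None of 10 cholangiocyte genes was called by edgeR, with 1 under an unadjusted p of 0.05 in the TMM fit, and on library totals 4 were higher. Of 10 platelet and erythroid genes Pf4 rose by 0.97 ± 0.28 and Alas2, the haem enzyme of red cell precursors, fell by 1.37 ± 0.16. Each was 10% of that list, where 21.2% of all genes rose and 20.5% fell.

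Interferon and antigen presentation genes rose together. Type I interferon genes rose in 32 of 36 cases, with a median of 0.90, genes induced by interferon-gamma in 20 of 24, with a median of 1.05, class I presentation and immunoproteasome genes in 20 of 22, with a median of 0.80, and class II genes in 7 of 9, with a median of 1.35. No member of these lists fell. Oasl2, an antiviral gene, went from 17.4, 28.5, 17.8 and 12.5 to 32.5, 74.6, 81.03 and 56.4 CPM, a rise of 1.69 ± 0.26 (edgeR adjusted p = 9.2e-05). Oas1a and Oas3, which sense double-stranded RNA, rose by 1.64 ± 0.21 and 1.51 ± 0.23, and Trim30a by 1.13 ± 0.18. Gbp2, a guanylate-binding protein, went from 82.05, 160.1, 106 and 56.6 to 171, 369, 424 and 346 CPM, a rise of 1.70 ± 0.31, with Ad-CTRL Pema replicate 2 and Ad-FAT10 Pema replicate 1 the closest libraries of the groups. Tgtp2 rose by 1.72 ± 0.25, Gbp9 by 1.38 ± 0.19 and Irf8 by 1.07 ± 0.17.

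H2-D1, a classical class I molecule, went from 824, 1145, 951 and 810.3 to 1505, 2161, 1819 and 1859 CPM, a rise of 0.98 ± 0.14 (edgeR adjusted p = 3.8e-05). The Qa-region genes H2-Q4, H2-Q6 and H2-Q7 rose by 1.30 ± 0.16, 1.68 ± 0.17 and 1.63 ± 0.17, though reads can be split between these close copies. The class II chain H2-Ab1 went from 49.3, 57.4, 53.02 and 54.5 to 75.5, 156, 186 and 135 CPM, a rise of 1.37 ± 0.18. In this gene and in H2-Eb1 (a rise of 1.30 ± 0.20), H2-DMa (1.49 ± 0.20) and H2-DMb1 (1.40 ± 0.21) Ad-FAT10 Pema replicate 1 was the lowest of the FAT10 libraries. T and NK cell genes and recruited macrophage genes moved in the same libraries, and their part in these rises was not tested.

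NF-kB and inflammatory genes rose in 14 of 23 cases and none fell, with a median of 0.53. Icam1, an adhesion molecule for white blood cells, went from 26.6, 33.6, 27.5 and 23.5 to 69.4, 58.01, 76.05 and 53.5 CPM, a rise of 1.21 ± 0.17 (edgeR adjusted p = 3.8e-05). Vcam1, a second such molecule, rose by 1.18 ± 0.22, the pathway gene Nfkb2 by 1.04 ± 0.19 and Tnfaip2 by 0.78 ± 0.13. Chemokine and receptor genes rose in 19 of 31 cases, among them the receptor Ccr1, at 2.34, and the ligand Ccl6, at 1.47. Of this list 61.3% rose and 12.9% fell, against 21.2% and 20.5% of all genes. The 4 that fell were Cxcl13, which draws B cells, at levels of 0.427 to 1.82 CPM in the controls and under the 3-count limit or near it with FAT10 (0 to 0.1301 CPM), Cxcl12 by 0.87 ± 0.15, Ccl27a by 0.46 ± 0.18 and Ccl9 by 0.36 ± 0.12. Ccl27a lost its call in 13 of 16 leave-one-out fits and Ccl9 in 4, and the count of falls was 2 without Ad-CTRL Pema replicate 1 or Ad-FAT10 Pema replicate 2 or 4.

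Acute phase genes, which the liver makes in inflammation, were higher in 10 of 32 cases and lower in 5, against 14 and 1 on library totals. With TMM these were 31.2% and 15.6%, where 21.2% and 20.5% of all genes were higher and lower. Saa3, a serum amyloid A gene of macrophages and hepatocytes, went from 11.4, 16.99, 10.1 and 10.2 to 228, 119, 72.3 and 119 CPM. Lcn2, lipocalin 2, went from 5.76, 16.2, 8.63 and 7.36 to 43.4, 55.9, 95.2 and 85.8 CPM. All FAT10 libraries of both lay above all controls, with Ad-FAT10 Pema replicate 1 the highest for Saa3 and the lowest for Lcn2, and the rises were 3.47 ± 0.41 and 2.89 ± 0.53 (edgeR adjusted p = 8.6e-06 and 3.5e-04). Cd14, the receptor for bacterial lipopolysaccharide, rose by 1.85 ± 0.15. The members that fell were Serpina3k by 1.64 ± 0.26, Apcs by 0.90 ± 0.29, Hamp by 0.84 ± 0.32, Orm1 by 0.82 ± 0.27 and Crp by 0.58 ± 0.12, of which Apcs, Hamp, Orm1 and Crp were not called on library totals. Hamp, hepcidin, lost its call in 6 of 16 leave-one-out fits, and Apcs lost it without Ad-CTRL Pema replicate 4 (log2 change -0.83, edgeR adjusted p = 0.0527), where 3 members of the list fell. Of 37 complement and coagulation genes, 16 fell and 7 rose, against 5 and 12 on library totals. The falls with TMM were 43.2% of the list and the rises 18.9%, where 20.5% and 21.2% of all genes fell and rose. The lectin pathway gene Masp1 fell by 1.20 ± 0.18 and Mbl1 by 0.96 ± 0.17, while its relative Mbl2 rose by 1.16 ± 0.15 and the C5a receptor C5ar1 by 1.57 ± 0.22.

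PPARα target genes were lower with FAT10 while both groups were on the PPARα agonist. Of 49 measured, 25 fell and none rose, with a median of -0.49, where 20.5% of all genes fell. On library totals 11 fell and 5 rose. Vnn1, vanin 1, measured 432, 426, 624 and 518 CPM in the Ad-CTRL Pema livers and 209, 228, 178 and 263 CPM in the Ad-FAT10 Pema livers. Eci1, which prepares unsaturated fatty acids for oxidation, measured 569, 513, 505 and 485 CPM and 321, 291, 278 and 279 CPM. In both genes the FAT10 libraries lay together, well under the lowest control, at log2 changes of -1.19 ± 0.19 and -0.83 ± 0.10 (edgeR adjusted p = 1.3e-04 and 1.2e-05). Tmem135, a peroxisome and mitochondrion protein, fell by 0.57 ± 0.09. With the levels without the drug beside them, Vnn1 measured 46.5 ± 13.03 CPM in Ad-CTRL CMC, 31.7 ± 6.97 in Ad-FAT10 CMC, 499.99 ± 92.6 in Ad-CTRL Pema and 219.6 ± 35.3 in Ad-FAT10 Pema (SD, n = 4). Ppara itself fell by 0.56 ± 0.16 (edgeR adjusted p = 0.00912), from 141, 208, 228 and 191 CPM to 132, 130.1, 116 and 143 CPM. Its groups overlapped at Ad-CTRL Pema replicate 1, and on library totals it was not called.

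The whole list did not move evenly. The 24 targets that were not called included the lipid droplet protein Plin2, the hormone Fgf21, the lipase inhibitor Angptl4 and the mitochondrial trifunctional subunit Hadha, with log2 changes of -0.19, 0.21, -0.05 and 0.00, chosen for mention after their values were seen. Pdk4, which shuts off pyruvate dehydrogenase, fell by 0.66 ± 0.23, from 717 ± 164 to 453 ± 125 CPM (SD, n = 4, edgeR adjusted p = 0.0283), a call lost on library totals and in 4 of 16 leave-one-out fits (highest adjusted p = 0.109).

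Peroxisomal genes fell in 23 of 35 cases and mitochondrial oxidation genes in 20 of 26, with medians of -0.43 and -0.44 and no member higher. On library totals 6 and 5 fell and 4 and 3 rose. Phyh, of the alpha-oxidation of branched fatty acids, measured 1566, 1867, 1699.9 and 1674 CPM in the controls and 898, 871, 811 and 847 CPM with FAT10, with no overlap, a fall of 0.99 ± 0.12 (edgeR adjusted p = 1.3e-05). Decr2 and Acot12 fell by 0.74 ± 0.09 and 0.56 ± 0.09. Acaa2, the last enzyme of mitochondrial beta-oxidation, fell by 0.59 ± 0.10, Etfdh, which passes its electrons on, by 0.68 ± 0.13 and the acyl-CoA synthetase gene Acsm3 by 0.76 ± 0.14. Of 7 ketogenesis genes 4 fell, Ppara among them, and none of these was called lower on library totals. Bdh1, which interconverts the ketone bodies, fell by 0.34 ± 0.11 and lost its call in 2 of 16 leave-one-out fits (highest adjusted p = 0.0669). The ketone transporter Slc16a6 rose by 0.62 ± 0.19.

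**Figure D4:**
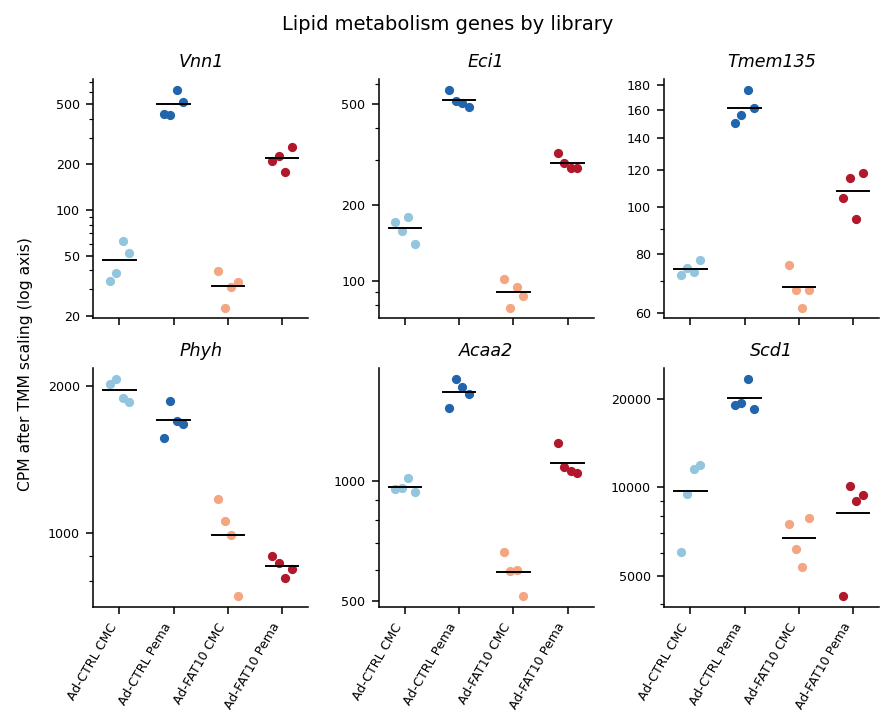
Level of 6 lipid metabolism genes in each of the 16 libraries (vertical axis, CPM after TMM scaling, log axis), by group, with the group mean as a bar. For each of the 6, all Ad-FAT10 Pema libraries lie below all Ad-CTRL Pema libraries.

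Lipid synthesis and transport genes were also mostly lower. Fatty acid and triglyceride synthesis genes fell in 14 of 24 cases, with a median of -0.55 (4 lower and 5 higher on library totals). Scd1, the main stearoyl-CoA desaturase of liver, measured 19072, 19442, 23483 and 18527 CPM in the controls and 4255, 10124, 9009 and 9433 CPM with FAT10. Ad-FAT10 Pema replicate 1 was the lowest, and the fall was 1.29 ± 0.25 (edgeR adjusted p = 5.0e-04). The elongase Elovl6 fell by 0.85 ± 0.17 and Agpat2, an enzyme of triglyceride synthesis, by 0.95 ± 0.17, while the related desaturase Scd2 rose by 1.19 ± 0.21, from 6.79 to 8.71 CPM to 9.57 to 25.4 CPM. Cholesterol synthesis genes fell in 9 of 24 cases, in 16 without Ad-FAT10 Pema replicate 2 and in 6 on library totals, where 2 rose, with Tm7sf2 at -1.36, Ebp at -0.83, Hsd17b7 at -0.94 and the sterol carrier Stard4 at -1.27.

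Lipoprotein genes fell in 14 of 24 cases (9 on library totals, with 3 higher). Apoa2, a protein of high-density lipoprotein, measured 6989, 6585, 5803 and 5899 CPM and 3056, 2507, 2172 and 2730.1 CPM, a fall of 1.27 ± 0.13 with no overlap (edgeR adjusted p = 1.8e-06). Apoa1 fell by 0.97 ± 0.16, Apoa5, which aids triglyceride clearance, by 1.00 ± 0.12 and Apoc4 by 0.91 ± 0.15. The apolipoprotein that rose was Apoa4, by 1.37 ± 0.38, with Ad-FAT10 Pema replicate 3 at 101 CPM and the other FAT10 libraries at 18.1 to 28.4 CPM, and without that library the change was 0.53 (edgeR adjusted p = 0.0503). Of 26 lipid droplet and uptake genes, 11 fell and 3 rose, against 7 and 6 on library totals. With TMM 42.3% of the list fell and 11.5% rose, where 20.5% and 21.2% of all genes did. The lipase Mgll and the fatty acid transporters Slc27a2 and Slc27a5 fell by 0.81 ± 0.14, 0.89 ± 0.15 and 1.23 ± 0.15. Those that rose were Lpl, lipoprotein lipase, by 1.14 ± 0.20, Plin3 by 0.81 ± 0.11 and Hsd17b13 by 0.32 ± 0.12, the last losing its call in 10 of 16 leave-one-out fits.

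Of 20 markers of hepatocytes, 14 fell and 2 rose, with a median of -0.52, and on library totals 6 fell and 4 rose. Their summed level was 101571 to 136366 CPM in the controls and 68209 to 92871 CPM with FAT10, which did not overlap. The part of this shift in the falls of liver metabolism genes was not tested. The protease inhibitor Serpina1b went from 3531, 4758, 4514 and 4459 to 2008, 1718, 1994 and 1726 CPM, a fall of 1.21 ± 0.14 (edgeR adjusted p = 7.3e-06), and Serpina1a, a close copy of it, fell by 0.91 ± 0.13. The 2 that rose were Cyp3a11, by 0.87 ± 0.19, and Hpx, hemopexin, by 0.46 ± 0.18, a call that Hpx lost in 9 of 16 leave-one-out fits.

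Genes that Wnt signals switch on around the central vein fell in 14 of 19 cases and none rose, with a median of -0.81, the lowest of the 43 lists, and 10 fell on library totals. Notum, a feedback inhibitor of Wnt, measured 14.7, 14.6, 14.3 and 14.6 CPM in the controls and 6.33, 6.83, 3.71 and 6.797 CPM with FAT10. Rgn, regucalcin, measured 932, 841, 761 and 803 and 388, 354, 254 and 371 CPM. In both, all FAT10 libraries were lower than all controls, with falls of 1.30 ± 0.18 and 1.29 ± 0.14 (edgeR adjusted p = 2.7e-05 and 3.9e-06). Lect2 fell by 1.03 ± 0.14 and Gulo, an enzyme of vitamin C synthesis, by 1.02 ± 0.16. Cyp2e1, a central vein cytochrome of alcohol metabolism, fell by 1.25 ± 0.20.

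Among cytochromes of families 1 to 3, 13 of 30 fell and 8 rose, and 9 and 10 on library totals. The TMM shares were 43.3% lower and 26.7% higher, against 20.5% and 21.2% of all genes. Cyp2c50 and Cyp2d26 fell by 1.40 ± 0.24 and 1.07 ± 0.13, and Cyp3a59 rose by 1.21 ± 0.20. Cyp2a4, a steroid hydroxylase, had the largest rise of the genes named by rule. It measured 0.519, 0.534, 2.34 and 0.308 CPM in the controls and 101, 189.5, 166 and 59.8 CPM with FAT10, with Ad-CTRL Pema replicate 3 standing above its group, a rise of 7.12 ± 1.28 (edgeR adjusted p = 3.1e-04). Its near-identical copy Cyp2a5 can take or give reads, so the size is uncertain, and the same holds for the Cyp2c, Cyp2d and Cyp3a families.

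Of 33 genes that break down amino acids or serve the urea cycle, 23 fell and none rose, with a median of -0.50 (9 lower and 2 higher on library totals). Haao, of the tryptophan pathway, went from 394, 439, 363 and 353 to 209.6, 199, 147 and 209 CPM, a fall of 1.02 ± 0.11 (edgeR adjusted p = 5.6e-06). Hpd, of tyrosine breakdown, fell by 0.99 ± 0.14, Aldh4a1, of proline breakdown, by 0.88 ± 0.10 and the glycine methyltransferase Gnmt by 0.83 ± 0.13. Of 21 bile acid genes, 7 fell and 2 rose, against 5 and 5 on library totals. With TMM these were 33.3% and 9.52%, where 20.5% and 21.2% of all genes fell and rose. The uptake transporters Slc10a1 and Slco1a1 fell by 1.17 ± 0.17 and 1.56 ± 0.23 and the synthesis enzyme Cyp27a1 by 0.79 ± 0.12. The export pump Abcc4 rose by 0.89 ± 0.27, with Ad-FAT10 Pema replicate 1 below the controls at 3.51 CPM and the other 3 at 10.7 to 12.8 CPM. The other rise was of Slc51b, an export transporter at or under 0.107 CPM in the controls and at 0.232 to 0.593 CPM with FAT10, too low for a fold change to be given.

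Oxidative phosphorylation genes fell in 20 of 40 cases with a median of -0.31, but 2 fell and 7 rose on library totals, where the median was 0.05. Ndufab1 and Ndufb10, of complex I, fell by 0.71 ± 0.12 and 0.62 ± 0.11, and Cox5a and Sdhc by 0.49 ± 0.08 and 0.47 ± 0.08, the last 2 not called on library totals. Of 27 genes of glycolysis, gluconeogenesis and glycogen, 8 rose and 7 fell, 29.6% and 25.9% where 21.2% and 20.5% of all genes did, and on library totals 14 rose and 2 fell. Pkm, the pyruvate kinase of non-hepatocytes and dividing cells, went from 34.2, 29.5, 27.7 and 25.5 to 62.8, 123, 171 and 99.2 CPM, a rise of 1.96 ± 0.21 (edgeR adjusted p = 2.9e-06). The hexokinases Hk1 and Hk2, low in hepatocytes, rose by 1.13 ± 0.17 and 1.35 ± 0.19, and Ppp1r3c, a glycogen-targeting subunit, by 1.39 ± 0.26.

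NRF2 target and glutathione genes rose in 17 of 28 cases, with a median of 0.86. Cbr3, a carbonyl reductase, measured 0.778, 1.39, 0.948 and 0.969 CPM in the controls and 13.7, 92.7, 43.9 and 45.2 CPM with FAT10. Gsta1, a glutathione transferase, measured 2.02, 2.72, 1.65 and 1.23 CPM and 9.42, 46.8, 23.4 and 29.1 CPM. Ad-FAT10 Pema replicate 1 was the lowest and replicate 2 the highest of the FAT10 libraries in both, and the rises were 5.58 ± 0.66 and 3.84 ± 0.53 (edgeR adjusted p = 7.8e-06 and 2.8e-05), with Gsta1 uncertain because close copies share reads. Slc7a11, the cystine transporter, rose by 4.34 ± 0.51, from 0.104 to 0.374 CPM to 2.78 to 6.25 CPM. The 2 that fell were Mgst1, a microsomal glutathione transferase, by 0.98 ± 0.14 and Gpx1 by 0.32 ± 0.12, a call that Gpx1 lost in 5 of 16 leave-one-out fits (highest adjusted p = 0.108).

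Few proteasome and heat shock genes were called with TMM scaling. Of 34 subunits and assembly factors of the standard proteasome, which degrades FAT10 conjugates, Psma1 and Psmc3 rose by 0.37 ± 0.11 and 0.24 ± 0.09 and Psme4 fell by 0.32 ± 0.11, and on library totals 26 rose. Psma1 lost its call in 1, Psmc3 in 6 and Psme4 in 3 of 16 leave-one-out fits. Heat shock genes gave Hsp90aa1 higher by 0.48 ± 0.19, lost in 10 of the 16, and Dnaja1, Hspb8 and Chordc1 lower by 0.44 ± 0.11, 0.43 ± 0.14 and 0.41 ± 0.10, of which none was called lower on library totals. Hspb8 lost its call in 2 of the 16. In the unfolded protein and integrated stress response list 7 of 31 rose and 6 fell, 22.6% and 19.4% where 21.2% and 20.5% of all genes did. On library totals 20 rose and 1 fell, and with TMM 11 rose without Ad-FAT10 Pema replicate 4. Psat1, of serine synthesis, went from 2.904, 4.06, 3.04 and 2.91 to 8.03, 12.6, 18.7 and 11.6 CPM, a rise of 1.98 ± 0.28 (edgeR adjusted p = 3.4e-05). The mitochondrial folate enzyme Mthfd2 rose by 1.57 ± 0.22 and the stress sensor Sesn2 by 0.71 ± 0.11, while Herpud1, of the degradation of misfolded proteins, fell by 0.75 ± 0.11.

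Of 15 fetal liver and biliary progenitor genes 5 rose and none fell, 33.3% higher where 21.2% of all genes were. Ly6d went from 22.04, 30.7, 43.1 and 22.3 to 87.7, 131, 110.1 and 109 CPM, a rise of 1.89 ± 0.32 with no overlap (edgeR adjusted p = 1.6e-04). Krt8 and Krt18, the keratin pair of hepatocytes and bile duct cells, rose by 1.11 ± 0.24 and 0.98 ± 0.24, with Ad-FAT10 Pema replicate 1 at 193 and 184 CPM within the control range. Igf2bp3, a fetal RNA-binding protein, rose by 1.65 ± 0.40 and Sox4 by 1.12 ± 0.35, a call that Sox4 lost without Ad-CTRL Pema replicate 2 (0.95, edgeR adjusted p = 0.0512) or Ad-FAT10 Pema replicate 1 (0.74, adjusted p = 0.0684).

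Among the 12 largest falls named by rule were those of the major urinary proteins, secreted pheromone carriers of mouse liver. Mup7 measured 2739.96, 2057, 1649 and 4056 CPM in the controls and 989, 224, 29.6 and 326 CPM with FAT10. Mup1 measured 108, 85.4, 88.6 and 159 and 58.1, 7.82, 1.48 and 9.56 CPM. The FAT10 libraries differed widely, with replicate 1 the highest and replicate 3 the lowest, and the falls were 2.74 ± 0.70 and 2.53 ± 0.75 (edgeR adjusted p = 0.00447 and 0.0114). Mup12 fell by 2.40 ± 0.59, and reads of this family cannot be told apart reliably between its close copies. The organic anion transporter gene Slc22a28 fell by 2.50 ± 0.29, the receptor gene Adgrf1 by 2.31 ± 0.29, Gabbr2, a subunit of the GABA-B receptor, by 1.96 ± 0.25, and Dct, dopachrome tautomerase, by 1.97 ± 0.43. Among the rises named by rule were also Ddit4l, a stress-induced inhibitor of mTOR signalling, by 3.45 ± 0.36, and Efr3b by 2.92 ± 0.45. They were not alone, as 222 called genes rose by at least 4-fold.

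The FAT10 effect with pemafibrate was set beside the effect without it, from 8 other livers. Under CMC FAT10 raised 3316 genes (22.5%) and lowered 2977 (20.2%). Genes called in both numbered 4384, which is 71.2% of those called under Pema and 69.7% of those called under CMC, and 4366 of them had the same direction. Across the 14770 genes, which are not independent replicates, the log2 changes of the 2 settings correlated at 0.834 (Pearson) and 0.798 (Spearman). The comparisons share no library. The difference between the effects was tested itself and called in 23 genes (0.156%), 4 with a higher and 19 with a lower change under Pema. The count of 23 was 120 by DESeq2, 93 with no filter on low counts and 11 to 36 when a library was left out, the fewest without Ad-CTRL Pema replicate 4 and the most without Ad-CTRL Pema replicate 1. At an unadjusted p under 0.05 there were 1591.

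Among the genes that differed, Il1rn, the natural blocker of the interleukin-1 receptor, measured 10.2 ± 3.43 CPM in Ad-CTRL CMC, 39.2 ± 11.4 in Ad-FAT10 CMC, 56.7 ± 5.05 in Ad-CTRL Pema and 55.2 ± 11.1 in Ad-FAT10 Pema (SD, n = 4). It rose with FAT10 by 1.96 ± 0.22 under CMC and had a change of -0.04 ± 0.20 under Pema, a difference of -1.996 ± 0.30 (edgeR adjusted p = 0.0106). Ipmk, an inositol phosphate kinase, measured 124, 118, 122 and 125 CPM in the Ad-CTRL Pema livers and 50.4, 54.1, 54.3 and 56.8 CPM in the Ad-FAT10 Pema livers. The libraries of each group were close together, and the change was -1.18 ± 0.10 under Pema and -0.19 ± 0.10 under CMC, a difference of -0.99 ± 0.14 (adjusted p = 0.00774). Pde7b, a cyclic AMP phosphodiesterase, measured 16.4, 15.1, 24.2 and 19.2 CPM and 4.86, 4.08, 4.87 and 3.84 CPM with no overlap, with changes of -2.09 ± 0.19 under Pema and -0.19 ± 0.20 under CMC and a difference of -1.89 ± 0.27 (adjusted p = 0.00856).

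Pdk4 was the PPARα target among the 23. Its FAT10 change was 1.20 ± 0.28 under CMC, from 3.28 ± 0.505 to 7.57 ± 3.01 CPM, and -0.66 ± 0.23 under Pema, a difference of -1.86 ± 0.36 (edgeR adjusted p = 0.0492). That difference lost its call in 14 of 16 leave-one-out fits (highest adjusted p = 0.128) and under RLE, upper quartile and totals-only scaling. Rc3h1, which promotes mRNA decay, and Atp10d, a lipid flippase, were lower with FAT10 under Pema, at -0.48 and -0.68, and higher under CMC, at 0.26 and 0.57, though neither fall was called on library totals. Pawr and the kinase gene Nek2 had changes of -0.08 and 0.38 under Pema, neither called, against rises of 0.93 and 1.61 under CMC, and on library totals both were called higher under Pema. Nek2 was also called higher under Pema in 6 of 16 leave-one-out fits, with upper quartile scaling, with no filter on low counts and in the 8 Pema libraries alone. The difference of Nek2 lost its call in 5 of the leave-one-out fits. Map2k3, Madd and Rab4a, of the 4 genes with a more positive change under Pema, stood at 0.13, 0.23 and 0.12 against -0.54, -0.31 and -0.58 under CMC, and their differences lost the call in 8, 12 and 14 of 16 leave-one-out fits. No other list held a called member except Il1rn of the NF-kB list.

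List medians under the drug and under CMC are given side by side, with no test of their difference. Mitosis genes stood at 1.84 under Pema and 2.105 under CMC, replication genes at 1.11 and 1.54, PPARα targets at -0.49 and -0.30, type I interferon genes at 0.90 and 0.49, NF-kB genes at 0.53 and 0.96 and neutrophil genes at 1.25 and 2.91.

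**Figure D5:**
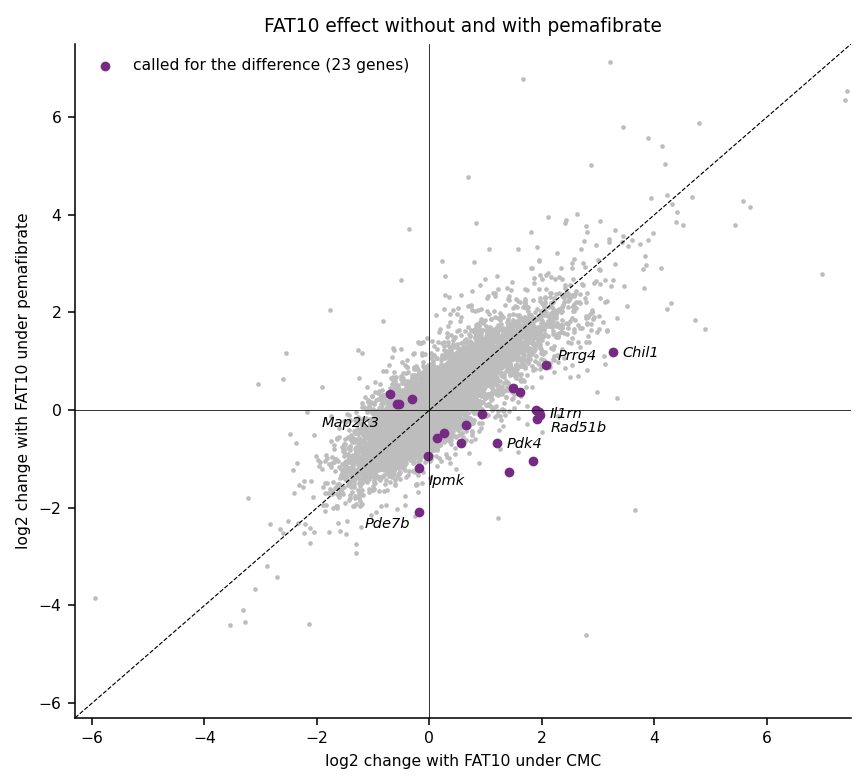
Log2 change with FAT10 under pemafibrate (vertical axis) against that under CMC (horizontal axis) for each of the 14770 genes tested, from separate livers. The dashed line marks equal changes, and the 23 purple points are the genes called for the difference, 19 of them below the line.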

How the data were processed

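Whole livers of 16 mice, 4 in each of 4 groups set by the sample titles, were profiled by RNA-seq of poly(A) RNA with strand-marked libraries, per the labels' protocols. Each library was deposited by the authors as whole-number counts per Ensembl gene identifier. Per the submitters' processing notes the genome build was GRCm39 and the tools included the aligner STAR, version 2.7.6, and DESeq2. How reads were counted, and with which strand setting, is not given in the sources used here. For this reason overlapping and antisense genes are uncertain. Gene symbols were matched by Ensembl identifier to an annotation of another build, used for names only.

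Counts were fitted with edgeR 4.0.16 (R 4.3.3, limma 3.58.1): filterByExpr, TMM scaling, 1 mean per group over all 16 libraries, quasi-likelihood test with 12 residual degrees of freedom and Benjamini-Hochberg adjustment over 14770 genes. The SE is the log2 change divided by the square root of F and so restates the test. Levels are CPM after TMM scaling. Of genes simulated from these counts with a log2 change of 0.5, 1 and 2 under Pema, 41.2%, 93.9% and 98.5% were called in a fit of 14311 genes. The changed genes averaged 1 log2 CPM or more, and 14111 genes were left unchanged. In the real data 41.7% of genes were called, so these shares need not hold there. The 3-count limit covers counting error only. Replicates are separate mice only as far as the titles number them, and no pair of libraries was identical.

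The genes named are Ubd, the 12 largest rises and 12 largest falls among called genes without overlap, with a standard symbol and averaging 1 log2 CPM or more, the 4 members of each list with the smallest p, up to 8 genes in each direction for the difference between Pema and CMC, and every member behind a count of 5 or fewer. Exceptions are named where they occur, and some genes the rule selects are not reported here. The lists and the members were chosen with earlier results of these data known, so lists are described and not tested. Alternatives were RLE and upper quartile scaling, library totals only, DESeq2 1.42.0, no filter, a filter at 1 CPM in 4 libraries, a replicate block, the 8 Pema libraries alone, and each library left out. Promoter sequences are those of RefSeq for GRCm38.p6.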

Additional observations from a re-analysis of the deposited data

Results flagged for a closer look

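In 17 of 422 groups checked over the named genes, and in 4 of 96 list levels, 1 of the 4 libraries of a group lay far from the others by Dixon's criterion. Chance meets it in about 1 in 20 groups. Among the Ad-FAT10 Pema libraries, replicate 1 was apart for Abcc4 at 3.51 CPM, against 10.7 to 12.8 in the others, for Scd1 at 4255 CPM, against 9009 to 10124, and for S100a9 at 7.95 CPM, against 4.73 to 5.04. Replicate 3 was apart for Elovl6 at 48.6, Haao at 147, Notum at 3.71 and Ptprb at 28.7 CPM. The same library stood apart in the mean log2 CPM of 4 lists: lower for bile acid genes at 6.19 and cytochromes P450 at 5.68, and higher for chemokines at 2.96 and Kupffer cell genes at 4.59.

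Among the Ad-CTRL Pema libraries, replicate 1 was apart for Dcn at 197, Ddit4l at 1.14, Lect2 at 56.3 and Zmat3 at 7.78 CPM. Replicate 2 was apart for Nek2 at 9.46 and Psat1 at 4.06 CPM, and replicate 3 for Mgll at 1077 CPM. Replicate 4 was apart for Ccnb1 at 0.705, Elovl6 at 100.5 and Psma1 at 136 CPM.

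The FAT10 effect differed between Pema and CMC by edgeR's test of the difference for 11 named genes. On the log2 scale the difference, Pema minus CMC, was -1.996 for Il1rn, -1.89 for Pde7b, -1.86 for Pdk4, -1.25 for Atp10d, -1.24 for Nek2, -1.01 for Pawr, -0.99 for Ipmk and -0.74 for Rc3h1. It was 0.54 for Madd, 0.67 for Map2k3 and 0.70 for Rab4a.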

How the results depend on the processing

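Scaling by library totals alone moved the most results, since the median gene then rose. It gave 7204 genes higher and 826 lower, 2169 and 144 of them by at least 2-fold. The members called lower were then 11 PPARα targets, 6 peroxisomal, 5 mitochondrial oxidation, 7 lipid droplet, 4 fatty acid synthesis, 9 lipoprotein, 9 amino acid, 2 oxidative phosphorylation, 5 complement, 6 hepatocyte and 8 sinusoidal endothelial genes. List medians that turned positive were 0.022 for ketogenesis, 0.0673 for lipid droplet, 0.11 for bile acid, 0.0072 for cytochrome P450, 0.0464 for oxidative phosphorylation, 0.36 for proteasome, 0.11 for complement, 0.24 for heat shock, 0.19 for Kupffer cell and 0.36 for platelet and erythroid genes. Genes that turned positive were Bdh1 at 0.022, Ccl9 at 0.0043, Gpx1 at 0.0407, Pawr at 0.29, Psme4 at 0.0406 and Pttg1 at 0.0924. The glycolysis median ran from -0.07105 without Ad-CTRL Pema replicate 1 to 0.147 without Ad-FAT10 Pema replicate 3. The difference between Pema and CMC was called in 120 genes by DESeq2 and 93 with no filter, and in 11 to 36 when a library was left out. The mitochondrial share differed by -2.26 to -1.32 percentage points with a library left out, past the threshold only without Ad-FAT10 Pema replicate 1. Leaving out a library gave 5225 to 6405 genes under Pema. Named genes lost a call under Pema only in fits without a Pema library, which are 8 of the 16. The exceptions were Ccl27a, Hpx, Hsd17b13 and Hsp90aa1, which also lost it in fits without a CMC library. With a replicate block, 5998 genes were called, 16 for the difference. In a fit of the 8 Pema libraries alone, 3016 genes were called higher and 2751 lower. Same-numbered libraries deviated together with r of 0.0025, 0.096, 0.046 and 0.071, and not every library correlated best with its own number. At these depths genes with a few counts per library, such as Lox and Slc51b, allow no fold change.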

Other observations

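Lists chosen after values had been seen are described here without a test. Of 20 genes known to be higher in male than in female mouse liver, 12 fell with FAT10 under pemafibrate and none rose, with a median log2 change of -0.83. The falls were 60% of this list, where 20.5% of all genes fell. The mean level of the 20 genes was 7.56 log2 CPM in Ad-FAT10 Pema replicate 1, within the 7.36 to 7.92 of the controls, and 4.95 to 5.87 in the other 3 FAT10 libraries. Of 11 measured genes known to be higher in females, 3 rose (A1bg, Cyp2b9 and Cyp2a4) and none fell, with a median of -0.24. The rises were 27.3% of this list, where 21.2% of all genes rose. The sex of the mice is not given, and close copies in the Mup and Cyp2 families share reads.

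Of 10 genes of serine and one-carbon synthesis, 6 rose and 1 fell, with a median of 1.14. That was 60% and 10%, where 21.2% and 20.5% of all genes rose and fell. The mitochondrial folate enzyme Mthfd1l rose by 2.27 and Aldh1l2 by 1.49, and Phgdh, which opens serine synthesis, by 1.95. The cytosolic enzyme Mthfd1 was the member that fell, at -0.38. The medians under CMC were -0.94, -0.72 and 0.73 for the 3 lists in the order given.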
